A study of Mus musculus with 6 samples.

Results

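The goblet cell mucus genes examined here were Muc2, Tff3, Spdef, Fcgbp, Clca1, Agr2, Zg16, Muc13, Foxa3 and Creb3l1, a list of 10 gene names. ATAC-seq reads the open parts of chromatin, where a transposase can insert adaptors, and a peak was assigned to one of these genes when the gene name given to it in the deposited table of peaks was exactly that of the member. This found 21 peaks of 123510 in all, and they carried 8 of the 10 names. Muc2 and Zg16 had 0 peaks under their names. Of all peaks, 61914 carried a gene name, and 18004 names had at least 1 peak. The libraries came from nuclei of whole small intestinal crypts of C57BL/6 mice, with 3 wild-type (WT) libraries and 3 libraries of a Smarcad1 knockout (KO) mediated by Vil-Cre, each numbered 1 to 3. Smarcad1 is a chromatin remodeler, and the comparison asks whether its loss alters accessibility. Cre driven by the Villin promoter acts in the intestinal epithelium, so other cells of the preparation keep the gene. Ages are not given, and the labels number the libraries without saying which animals they came from, so p-values measure the spread between these libraries. In whole crypt nuclei, fewer cells of a type and less signal per cell cannot be told apart.

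Goblet cells are the mucus-secreting cells of the intestinal epithelium and arise from crypt stem cells through a secretory progenitor that depends on Atoh1. Their product is built around the gel-forming mucin Muc2, which is folded in the endoplasmic reticulum, heavily glycosylated in the Golgi and released with smaller mucus proteins. The transcription factor Spdef drives goblet cell maturation. Goblet cells are a minority of the cells of a small intestinal crypt, so the values below are from a mixture of cell types.

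The sequences under the members' accessible starts are shown first, since these are the windows the measurements bear on. A promoter in the RefSeq table of GRCm38.p6 was found for 6 of the 10 members, namely Muc2, Spdef, Fcgbp, Agr2, Muc13 and Foxa3, and not for the other 4. The 250 bases before the start are printed for the 5 whose start lay under a peak, each read 5′ to 3′ on the strand of its gene. They are chr7:141690090-141690339 (plus strand), chr7:28070986-28071235 (plus), chr12:35992675-35992924 (plus), chr16:33793787-33794036 (plus) and chr7:19023540-19023789 (minus). Capitals mark exact matches, on either strand, to the letters of 7 motifs: TGTTTAC (forkhead), CAGCTG (E-box), TTTATNG (CDX), CAAAGTC (HNF4), GGATGT (ETS factors with a GGAT core), GGGNGTGG (KLF) and TGACGTGG (CREB3 family).
Muc2 promoter: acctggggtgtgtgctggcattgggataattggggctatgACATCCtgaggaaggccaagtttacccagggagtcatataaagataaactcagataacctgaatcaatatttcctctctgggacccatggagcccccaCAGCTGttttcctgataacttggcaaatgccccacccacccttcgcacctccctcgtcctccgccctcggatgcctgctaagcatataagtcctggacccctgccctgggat
Fcgbp promoter: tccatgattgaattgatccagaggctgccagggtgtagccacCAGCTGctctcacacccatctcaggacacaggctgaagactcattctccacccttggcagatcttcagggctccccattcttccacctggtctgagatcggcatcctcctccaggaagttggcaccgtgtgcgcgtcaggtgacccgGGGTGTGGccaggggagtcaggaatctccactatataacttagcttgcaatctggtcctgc
Agr2 promoter: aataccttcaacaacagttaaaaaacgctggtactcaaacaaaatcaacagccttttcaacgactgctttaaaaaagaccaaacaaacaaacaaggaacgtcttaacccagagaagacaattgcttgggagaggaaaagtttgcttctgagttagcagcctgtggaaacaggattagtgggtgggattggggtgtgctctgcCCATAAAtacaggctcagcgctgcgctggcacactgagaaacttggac
Muc13 promoter: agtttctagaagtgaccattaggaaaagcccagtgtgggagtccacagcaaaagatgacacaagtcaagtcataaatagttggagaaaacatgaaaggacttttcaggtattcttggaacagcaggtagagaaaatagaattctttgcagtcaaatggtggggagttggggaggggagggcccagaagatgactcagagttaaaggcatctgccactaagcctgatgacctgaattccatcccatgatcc
Foxa3 promoter: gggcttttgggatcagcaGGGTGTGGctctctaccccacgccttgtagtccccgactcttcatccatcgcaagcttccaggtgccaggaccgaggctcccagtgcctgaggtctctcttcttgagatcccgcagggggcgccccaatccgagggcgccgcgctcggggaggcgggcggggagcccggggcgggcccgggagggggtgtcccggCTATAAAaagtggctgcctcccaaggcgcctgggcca

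Counted from 1 at the 5′ end, the Muc2 window held the ETS letters at 41, on the opposite strand, and the E-box letters at 139. The Fcgbp window held the E-box letters at 43 and the KLF letters at 190. In the Agr2 window the CDX letters stood at 203 and in the Foxa3 window at 214, both read from the opposite strand as CCATAAA and CTATAAA, and the Foxa3 match overlaps the letters of a TATA box. The Foxa3 window also held the KLF letters at 19. The printed Muc13 window held none of the 7 motifs. RefSeq gives Muc13 a second promoter window (chr16:33794239-33794488), under the same start peak and not printed. It held the HNF4 letters at 67, on the opposite strand. Among 32851 promoters of the same length, the E-box letters occurred in 13%, the CDX letters in 9.81%, the ETS letters in 9.46% and the KLF letters in 15.9%, so none of these letters is rare among promoters. The HNF4 letters occurred in 3.84%. GC content of the printed windows ran from 44.4% for Agr2 to 68.8% for Foxa3. A match of letters is a description and not a binding site.

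Peaks away from the starts are shown for 3 transcription factor or secreted product genes, by the central 300 bases of the peak on the strand of the gene. They are the peak just upstream of Tff3 (chr17:31131076-31131375, minus strand), the intragenic Spdef peak with the largest KO minus WT difference of all members (chr17:27719626-27719925, minus) and the Creb3l1 intron peak with the highest WT level per kb of all members (chr2:91984426-91984725, minus). The Spdef and Creb3l1 peaks were picked for printing after their values were seen.
Tff3 upstream peak centre: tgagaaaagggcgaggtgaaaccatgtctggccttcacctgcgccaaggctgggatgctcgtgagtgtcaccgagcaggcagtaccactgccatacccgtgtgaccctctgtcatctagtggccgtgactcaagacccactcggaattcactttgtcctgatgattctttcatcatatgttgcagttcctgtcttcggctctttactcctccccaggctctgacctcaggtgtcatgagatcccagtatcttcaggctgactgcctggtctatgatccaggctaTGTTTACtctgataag
Spdef intragenic peak centre: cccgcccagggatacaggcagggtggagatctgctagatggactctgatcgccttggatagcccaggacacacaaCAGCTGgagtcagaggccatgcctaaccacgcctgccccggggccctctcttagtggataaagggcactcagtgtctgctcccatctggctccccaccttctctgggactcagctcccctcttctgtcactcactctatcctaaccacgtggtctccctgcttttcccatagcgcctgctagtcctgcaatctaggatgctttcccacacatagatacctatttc
Creb3l1 intron peak centre: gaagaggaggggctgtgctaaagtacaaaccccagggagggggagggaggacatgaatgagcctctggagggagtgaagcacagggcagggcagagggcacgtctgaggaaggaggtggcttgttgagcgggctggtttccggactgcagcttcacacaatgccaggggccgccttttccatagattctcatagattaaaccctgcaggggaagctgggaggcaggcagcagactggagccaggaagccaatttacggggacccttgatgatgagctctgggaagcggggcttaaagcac

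The Tff3 peak centre held the forkhead letters at 285, the Spdef centre held the E-box letters at 76, and the Creb3l1 centre held none of the 7 motifs. Over the central 300 bases of all 21 member peaks, the E-box letters were found in 5 peaks (23.8%, against 18.0% of all 123510 peaks), the ETS letters in 5 (23.8% against 14%), the forkhead letters in 3 (14.3% against 4.42%), the CDX letters in 3 (14.3% against 13.2%) and the KLF letters in 3 (14.3% against 12.6%). The HNF4 letters were in 0 of the 21 centres and in 6.37% of all peaks. The CREB3 letters were in 1 member peak (4.76% against 0.32%), which is one of the peaks named Clca1 described next. The forkhead letters lay in a peak each of Tff3, Fcgbp and Creb3l1. These are counts of few peaks and are given without a test. The median GC content of the member centres was 53.0%, and that of all centres was 48.7%.

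The names in the table had to be checked against the genome before any value was read, because a peak carries only 1 name. The 2 peaks named Clca1 (chr3:144753001-144753600 and chr3:144760201-144762000) carry the identifier ENSMUSG00000056025, which is now the gene Clca3a1, for which RefSeq lists Clca1 as a synonym. The goblet cell gene called Clca1 today (ENSMUSG00000028255, chr3:145003817-145032776), which encodes a secreted metalloprotease of mucus, stands in the table under its older name Clca3, with 4 peaks. The peak over the Muc2 start (chr7:141689251-141691050) is named CAAA01115770.1, and the peak over the Muc13 start (chr16:33793651-33795600) is named Gm15657, so neither was found under the member's name. Within 5 kb of the members' gene models in the GENCODE annotation of GRCm38 there were 29 peaks, with at least 1 at each of the 10 genes. Of these, 19 carried the member's name and 10 did not. Values for both sets are given below, the 21 peaks by name first.

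Foxa3, a forkhead transcription factor of goblet and other endodermal cells, had 1 peak, and Muc13 had 1, Spdef, Fcgbp and the name Clca1 had 2 each, Tff3 had 3, Agr2 had 4 and Creb3l1 had 6. The median over all 18004 gene names was 2 peaks, the mean was 3.44, and 42.1% of names had 1 peak. Creb3l1 had more peaks than 85.8% of gene names and Agr2 more than 75.2%. The member peaks were 600 to 3300 bp wide with a median of 1050 bp, against 750 bp for all peaks.

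WT strength was compared per length, as the mean normalized read count of the 3 WT libraries per kb of peak width (linear scale, reads scaled to the largest library). Summed over the peaks of a name, the order of levels was Foxa3 (213 ± 48.0), Fcgbp (176 ± 48.4), Creb3l1 (159 ± 43.3), Tff3 (129 ± 23.0), the name Clca1 (125 ± 40.8), Agr2 (122 ± 26.5), Spdef (113 ± 18.9) and Muc13 (99.6 ± 21.6, SD, n = 3 for each). The WT ranges of neighbours in this order overlapped. The same libraries measured all genes, so overlap of these ranges does not show whether neighbours differed. Foxa3 lay above Fcgbp, and Fcgbp above Creb3l1, in each WT library. Each of the other neighbouring pairs changed order in at least 1 WT library. Foxa3 stood above 84.0% of all gene names on this scale, Fcgbp above 73.9%, Creb3l1 above 66.7% and Tff3 above 51.8%. Spdef stood above 42.5% and Muc13 above 33.8%. The members were thus spread from the lower to the upper range of all gene names. With the peaks within 5 kb in place of the names, Muc13 came to 176 ± 42.9 because its start peak was then included, Zg16 came to 106 ± 18.3, Muc2 to 91.5 ± 25.2 and Clca1 proper to 84.7 ± 9.50 reads per kb (SD, n = 3).

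**Figure D1:**
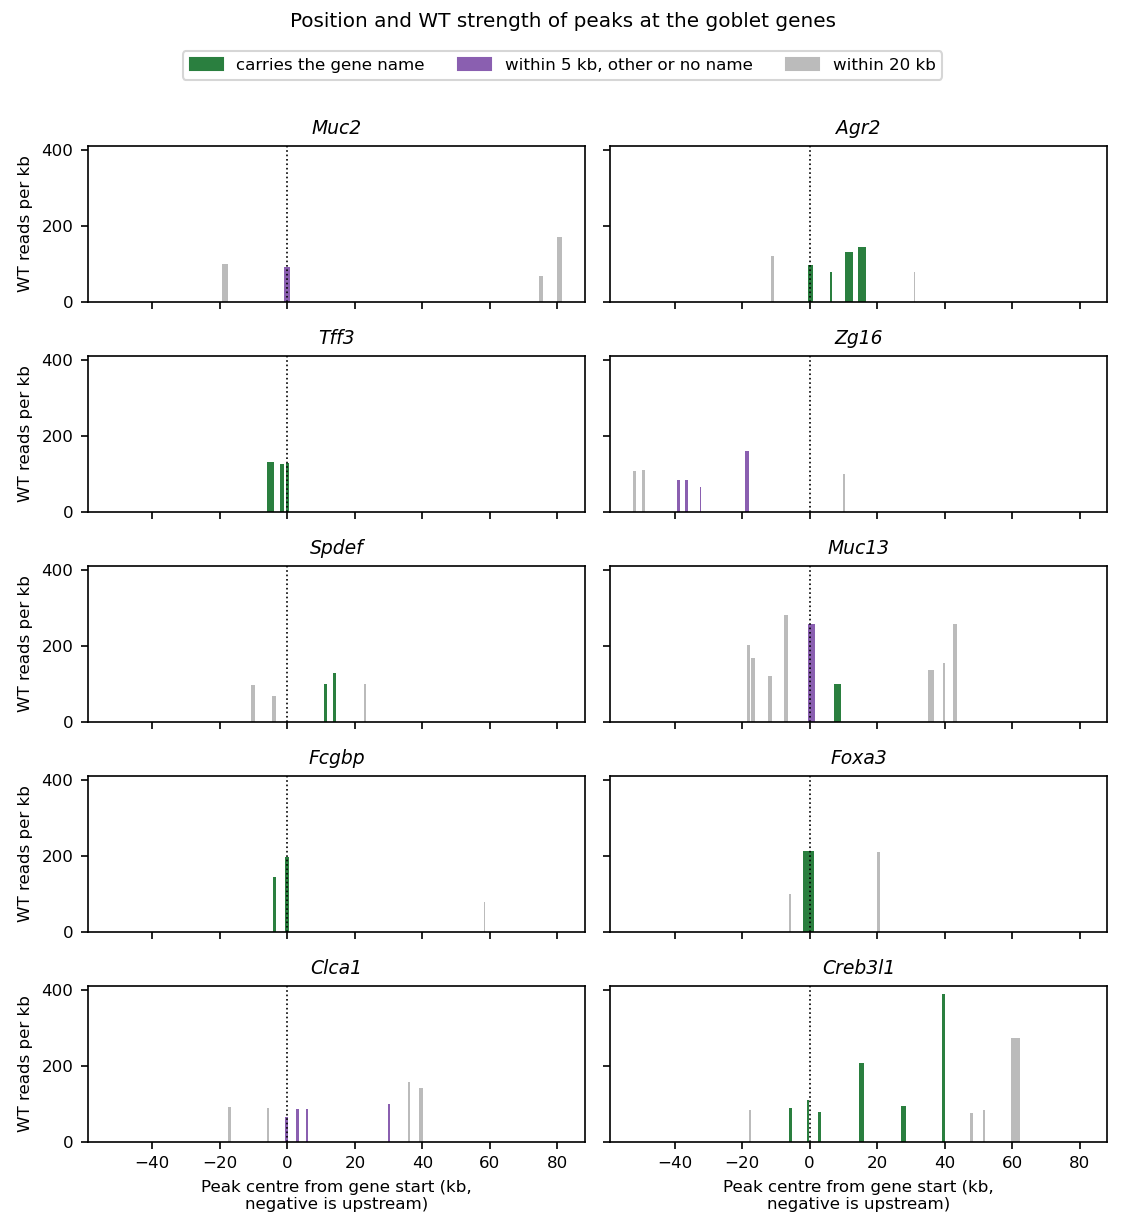
Peaks at each goblet gene, with the distance of the peak centre from the RefSeq gene start in kb on the x axis (negative is upstream) and the mean WT normalized read count per kb of peak width on the y axis, drawn at the width of the peak. Green bars carry the member's name, purple bars lie within 5 kb of the gene in GENCODE under another name or none, and grey bars lie within 20 kb. The tallest member bar, at 391 reads per kb, is the Creb3l1 intron peak. The peaks named Clca1 that belong to Clca3a1 are not drawn.

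Single peaks were ranked among all 123510 peaks, of which 61914 carried a gene name. Their percentiles are therefore not on the scale of the gene names above. Member peaks were not ranked among named peaks alone. The median WT level of the 21 member peaks was 128 reads per kb, against 88.2 for all peaks, and 18 of the 21 lay above that median of all peaks. Their percentiles among all peaks ran from 25.1 to 99.2 with a median of 82.0. The highest was the Creb3l1 intron peak (chr2:91984201-91984950, 391 reads per kb), which lies 39.2 kb from the gene start, and the next were the peak over the Foxa3 start (chr7:19022101-19025400, 213 per kb) and another Creb3l1 intron peak 14.6 kb from the start (209 per kb). The peak at the Creb3l1 start itself was lower, at 110 per kb. In Agr2 the highest level was found beyond the 3′ end of the gene (chr12:36007201-36009750, 145 per kb) and not at the start (95.2 per kb). The Muc13 start peak outside the naming rule reached 258 per kb, the 96.6 percentile of all peaks, while the Muc2 start peak lay at the 55.8 percentile. The start peak of Clca1 proper lay at the 4.48 percentile, at 66.0 per kb.

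For the KO minus WT comparison, limma was fitted to the deposited log2 values of all 123510 peaks, and a peak was called at a Benjamini-Hochberg adjusted p below 0.05. It called 0 of the 21 member peaks, 0 of the 29 within 5 kb and 0 of the 58 within 20 kb, where 0.0% of all peaks were called. With no peak called anywhere, these counts do not set the members apart from other peaks. The study reported sites of changed accessibility from its own edgeR test, so the lack of calls belongs to this limma fit. At an unadjusted p below 0.05 there were 0 of 21 and 0 of 29 member peaks, against 2.28% of all peaks. The 3 KO values lay apart from the 3 WT values in 0 of the 21, and in 6.8% of all peaks. The KO mean was higher in 16 of the 21 peaks and lower in 5, where 46.9% of all peaks were higher. The differences ran from -0.08 to 0.51 on the log2 scale with a median of 0.17, beside -0.02 for all peaks, and limma standard errors of 0.26 to 0.39. The count of 16 was 12 without WT2, 10 without KO3, 20 without KO2 and 21 without WT3, so it rests on single libraries. Peaks of the same gene are not independent, and the count carries no test. The 21 peaks all carry a gene name, and the share higher in KO among named peaks alone was not counted. Of gene names, summed over their peaks, 55.3% were higher in KO.

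**Figure D2:**
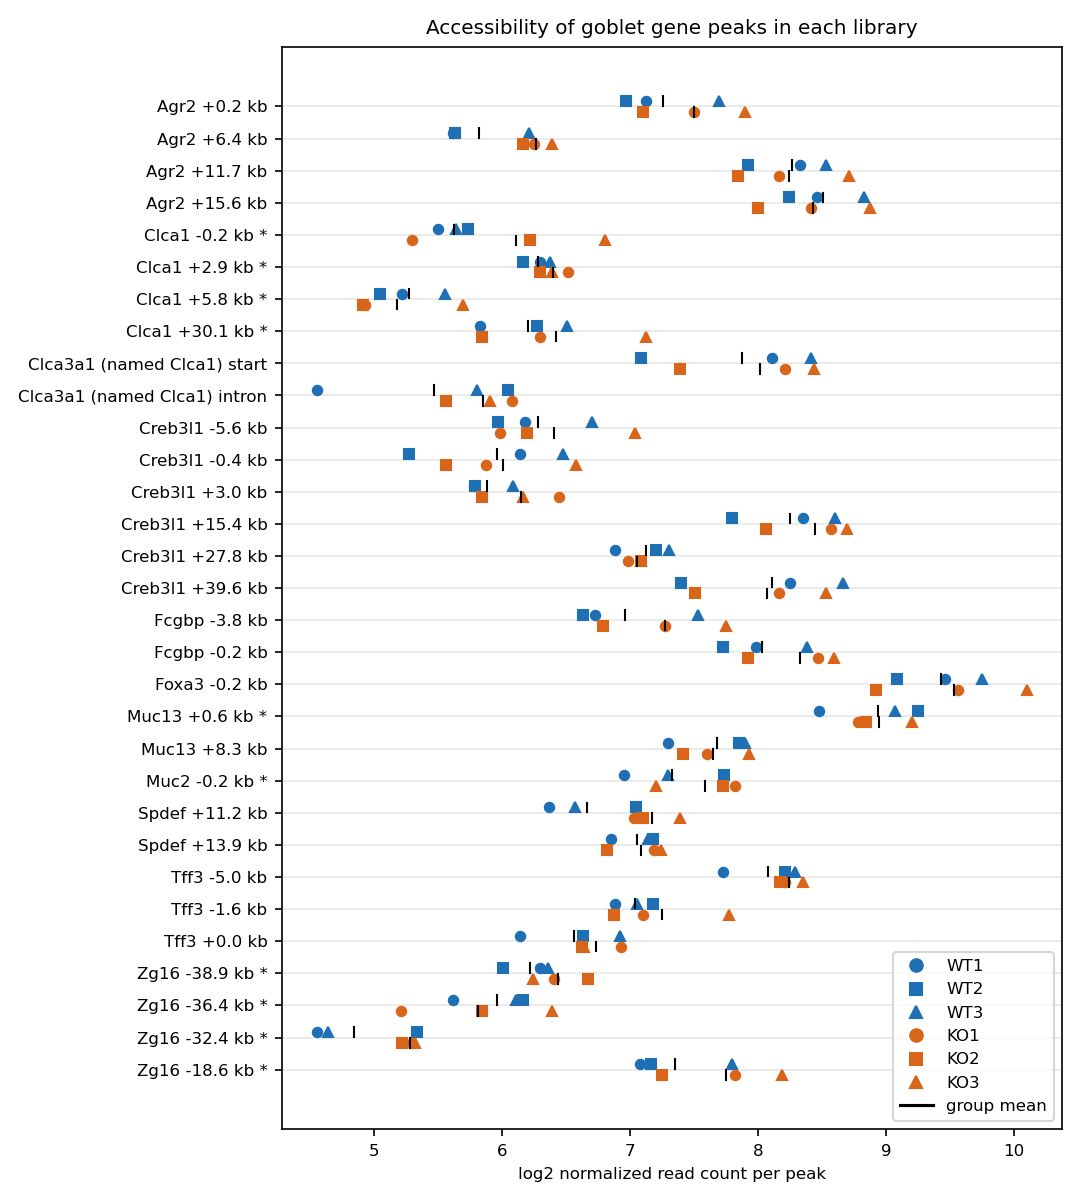
Normalized log2 read count (x axis) of each goblet gene peak in each of the 6 libraries, 1 row per peak, labelled by gene and distance of the peak centre from the gene start; an asterisk marks peaks within 5 kb that do not carry the gene's name. Blue symbols are WT and orange symbols KO, with circles, squares and triangles for numbers 1, 2 and 3, and black ticks are group means. WT and KO symbols overlap in all rows.

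Among the secreted products, Tff3 encodes a trefoil peptide released together with Muc2. The peak over its start (chr17:31129201-31129950, coding exon and upstream sequence) had normalized log2 read counts of 6.14, 6.63 and 6.92 in WT1 to WT3 and of 6.93, 6.63 and 6.64 in KO1 to KO3. WT1 was the lowest library, and the other 5 lay together, so the groups overlapped. The difference was 0.17 with a 95% interval of -0.43 to 0.77 (limma, adjusted p = 1). The peak 3.94 kb upstream (chr17:31133551-31135650) was the strongest of Tff3 per kb, at 130 reads per kb, and had values of 7.73, 8.21 and 8.29 in WT and 8.21, 8.17 and 8.35 in KO. Again only WT1 was set apart, on the low side. Between them, the upstream peak whose centre is printed above (chr17:31130701-31131750) had 6.88, 7.18 and 7.06 in WT and 7.10, 6.88 and 7.78 in KO. Here KO3 was the highest library and KO2 was level with WT1.

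Fcgbp encodes a large protein of the mucus gel. Its start peak (chr7:28070401-28071750) had 7.98, 7.72 and 8.38 in WT and 8.47, 7.92 and 8.60 in KO, on the log2 scale. KO1 and KO3 lay above all WT libraries and KO2 lay below WT1, so the groups overlapped. The difference was 0.30 with an interval of -0.39 to 0.98 (limma, adjusted p = 1), and the other Fcgbp peak, 3.39 kb upstream (chr7:28066951-28067850), differed by 0.31.

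For Muc2, which encodes the gel-forming mucin, the only peak within 5 kb was that over the start. It had normalized log2 read counts of 6.95, 7.74 and 7.29 in WT and 7.82, 7.73 and 7.21 in KO, from 37 to 157 reads per library. The 2 groups covered nearly the same range, with WT1 lowest and KO1 highest. The difference was 0.26 with an interval of -0.40 to 0.92 (limma, adjusted p = 1), and it ranged from 0.07 to 0.46 with 1 library left out. Clca1 proper had 4 peaks within 5 kb with differences of 0.22, -0.09, 0.12 and 0.48. The largest was at the start (chr3:145032601-145033350), where the values were 5.50, 5.74 and 5.64 in WT and 5.29, 6.22 and 6.80 in KO. The WT libraries lay close together there, and the KO libraries fell on both sides of them, with 18 to 52 reads per library. The start peak of Clca3a1, named Clca1 in the table (chr3:144760201-144762000), had 8.11, 7.09 and 8.42 in WT and 8.21, 7.39 and 8.44 in KO. WT2 and KO2 were the low libraries of their groups, and the difference was 0.14.

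Zg16 encodes a secreted lectin-like protein that binds bacteria in mucus. RefSeq places it at chr7:127050156-127052675, and no peak lay within 5 kb of that model. The GENCODE model extends upstream to 127087328, and 4 peaks lay within 5 kb of it, 18.0 to 38.4 kb from the RefSeq start, of which 2 carried no name and 2 the name AI467606. Their differences were 0.40, 0.43, -0.15 and 0.22. The strongest (chr7:127070701-127071750, intron, 159 reads per kb) had 7.08, 7.16 and 7.80 in WT and 7.82, 7.25 and 8.19 in KO, and KO2 lay within the WT range. Muc13 encodes a transmembrane mucin that enterocytes also carry on their surface. Its start peak had 8.48, 9.25 and 9.07 in WT and 8.78, 8.85 and 9.21 in KO, and its peak 7.26 kb into the gene (chr16:33801301-33803400) had 7.29, 7.86 and 7.90 in WT and 7.60, 7.41 and 7.93 in KO. In both, the KO values lay inside the WT range or, for KO3 at the inner peak, just above it, and the differences were 0.01 and -0.04.

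Agr2 encodes a protein disulfide isomerase of the endoplasmic reticulum that takes part in mucin folding. The peak over its start (chr12:35992351-35994000) had 7.12, 6.97 and 7.69 in WT and 7.50, 7.10 and 7.90 in KO. WT3 lay above KO1 and KO2, so the groups overlapped. The difference was 0.24 with an interval of -0.43 to 0.91 (limma, adjusted p = 1), and it ranged from 0.04 to 0.46 with 1 library left out. The strongest Agr2 peak, downstream of the gene, had 8.46, 8.25 and 8.83 in WT and 8.42, 8.0 and 8.88 in KO, a difference of -0.08. The start and downstream peaks of Agr2 thus had differences of opposite sign, both within the spread between libraries.

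The 3 transcription factors of the list were Spdef, Foxa3 and Creb3l1. Spdef had no peak over its start, and its 2 named peaks lay inside the gene, at 10.7 and 13.4 kb from the RefSeq start. The first (chr17:27719251-27720300, coding exon and flanking intron) had the largest difference of the 21 peaks. Its values were 6.37, 7.05 and 6.57 in WT and 7.03, 7.10 and 7.39 in KO, from 42 to 96 reads per library. KO1 lay just below WT2, and all other KO values lay above all WT values. The difference was 0.51 with an interval of -0.09 to 1.11 (limma, unadjusted p = 0.088, adjusted p = 1). The second (chr17:27716551-27717600, 128 reads per kb) had 6.86, 7.18 and 7.14 in WT and 7.19, 6.82 and 7.24 in KO, and the groups covered the same range, with a difference of 0.03.

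A further peak near Spdef was examined after its values were seen. It lies 3.25 kb upstream of the RefSeq start (chr17:27734251-27735450), carries the name Gm15458 and was in neither set above, since it lies over 5 kb from the GENCODE model. Its values were 5.97, 6.58 and 6.41 in WT and 7.27, 7.31 and 6.95 in KO, from 31 to 111 reads per library. All KO values lay above all WT values, and the difference was 0.86 with an interval of 0.27 to 1.45 (limma, unadjusted p = 0.007, adjusted p = 1). Its WT level was low, at 67.6 reads per kb, the 6.50 percentile of all peaks. Of the 58 peaks within 20 kb of the members, 3 had an unadjusted p below 0.05 (2.28% of all peaks did) and 4 did not overlap between groups (6.8% of all peaks). The other 3 that did not overlap were a peak named Tspan13 beyond Agr2 (chr12:36024001-36024300, difference 0.79, 9 to 25 reads), a peak named Gm13780 upstream of Creb3l1 (chr2:92041501-92042100, 0.72, 25 to 52 reads) and a peak named Kif22 near Zg16 (chr7:127042051-127042800, 0.13). All 4 were higher in KO. Peaks without overlap and higher in KO made up 2.7% of all peaks.

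The Foxa3 start peak was the widest of the member peaks, at 3300 bp, and the most deeply covered, with 275 to 861 reads per library. Its values were 9.46, 9.09 and 9.75 in WT and 9.57, 8.92 and 10.10 in KO. KO3 was the highest library and KO2 the lowest, so the KO libraries enclosed the WT range. The difference was 0.10 with an interval of -0.72 to 0.91 (limma, adjusted p = 1). Creb3l1 encodes a transcription factor held in the endoplasmic reticulum membrane and tied to secretory capacity. At its strongest peak, in the intron, the values were 8.25, 7.40 and 8.67 in WT and 8.17, 7.51 and 8.54 in KO, and at its start (chr2:92024251-92024850) they were 6.14, 5.27 and 6.48 in WT and 5.88, 5.56 and 6.58 in KO. In both peaks WT2 and KO2 were the low libraries and the remaining libraries of the 2 groups overlapped. The differences were -0.04 and 0.04, with limma standard errors of 0.38 and 0.34.

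Because peaks of a gene are not replicates, the linear values of all peaks of a name were also summed per library and fitted in limma over all 18004 gene names. Of these, 0.0% were called, 0.761% had an unadjusted p below 0.05 and 3.34% did not overlap between groups. Of the 8 members with a named peak, 0 were called, 0 had an unadjusted p below 0.05 and 0 did not overlap between groups. The KO mean was higher for 7 of the 8, against 55.3% of all gene names, and the median difference was 0.12, against 0.02 over all names. Without WT2 the count was 4 of 8 and without KO3 it was 3 of 8. By name, the log2 differences were 0.30 for Fcgbp, 0.26 for Spdef, 0.19 for Tff3, 0.13 for the name Clca1, 0.10 for Foxa3, 0.08 for Creb3l1, 0.04 for Agr2 and -0.04 for Muc13. Over the peaks within 5 kb, Muc2 differed by 0.26, Zg16 by 0.29 and Clca1 proper by 0.23, and 9 of the 10 genes had a higher KO mean. The 95% limma intervals all held 0. The widest of them, for Foxa3, ran from -0.63 to 0.83, and that of Spdef from -0.24 to 0.75. Differences of either sign between these limits are thus compatible with these libraries. The intervals are not adjusted for the 18004 names and do not give the smallest difference that could be called.

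**Figure D3:**
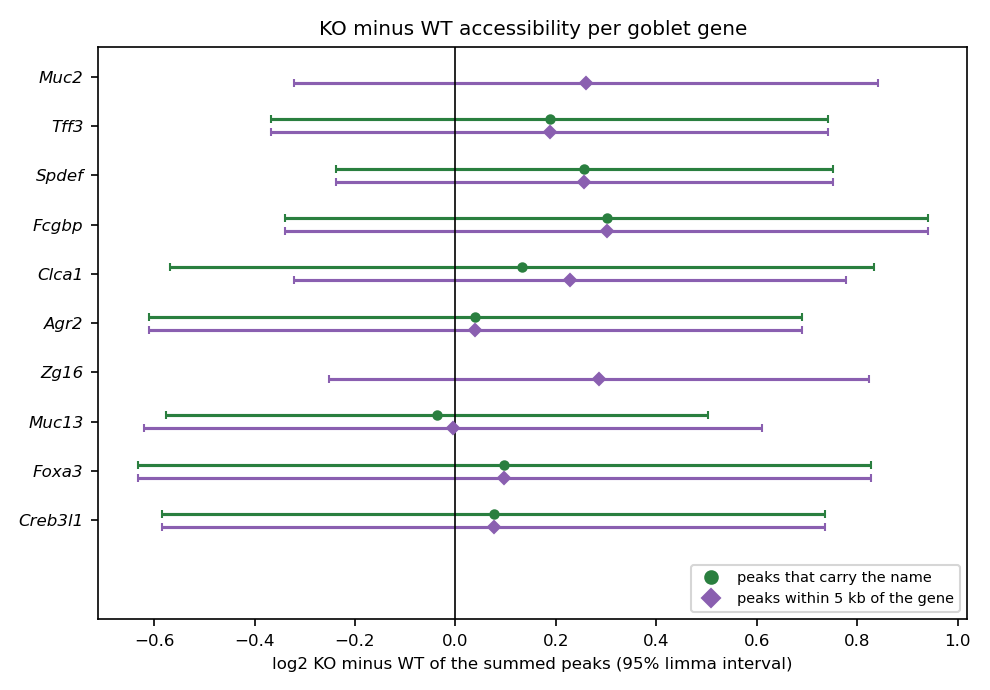
KO minus WT log2 difference of the summed peaks of each goblet gene (x axis), with 95% limma intervals from 3 WT and 3 KO libraries as bars. Green circles sum the peaks that carry the name, where Clca1 stands for the peaks of Clca3a1, and purple diamonds sum the peaks within 5 kb. All intervals cross 0, and the points run from -0.04 to 0.30.

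As a share of all reads in peaks, the 21 member peaks held 283, 310 and 315 reads per 1000000 in WT1 to WT3 and 333, 311 and 332 in KO1 to KO3. KO2 lay within the WT range and the other KO libraries above it. The WT mean was 303 ± 17.3 (SD, n = 3) and the KO mean was 325 ± 12.7 (SD, n = 3), which is 22.5 per 1000000 higher. For the 29 peaks within 5 kb, the WT libraries held 332, 414 and 375 reads per 1000000 and the KO libraries 401, 405 and 402. The 3 KO libraries were nearly level there, and WT2 lay above all of them. Muc2 took 8.90, 18.8 and 9.63 reads per 1000000 in WT and 16.6, 19.2 and 8.53 in KO, so WT2 had about as much as the highest KO library. For Fcgbp the values were 25.9, 27.3 and 31.8 in WT and 37.3, 31.9 and 34.8 in KO. On this scale the KO libraries lay above the WT libraries, KO2 by a margin smaller than 1 read per 1000000. Zg16 also lay apart, with 20.6, 28.2 and 24.5 in WT and 28.4, 31.5 and 28.3 in KO, again by a margin smaller than 1. WT and KO overlapped in the other members. The share of all gene names that lay apart on this scale was not counted, so Fcgbp and Zg16 have no background here. On the log2 scale of the gene sums, WT and KO overlapped in both genes. These shares are sums over the chosen list and are given without a test.

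Library number moved with many of these values. The libraries held 4339306 to 16301164 reads in peaks, and a member peak rested on 12 to 861 reads per library. The summed normalized values were 11366801 in WT2 and 11070862 in KO2, against 13663315 to 17315181 in the other 4 libraries. In 13 of the 21 member peaks (61.9%) both number 2 libraries lay below the mean of the other libraries of their group, as they did in 55.5% of all peaks, and in 1 member peak both lay above it. It was largest at the Clca3a1 start peak, with log2 deviations of -1.18 in WT2 and -0.94 in KO2, and at the strongest Creb3l1 intron peak, with -1.06 and -0.84. The Tff3 and Spdef peaks did not share it, since at all 5 of them WT2 lay above the mean of the other WT libraries while KO2 lay below that of the other KO libraries. At the Muc2 start both number 2 libraries lay above the mean of the others of their group, by 0.61 in WT2 and 0.21 in KO2. The part of the library number in the KO minus WT values was not tested beyond the alternative fits. No peak overlapped the Smarcad1 exons 12 to 14 that are floxed in this allele, so the deletion was not measured here.

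**Figure D4:**
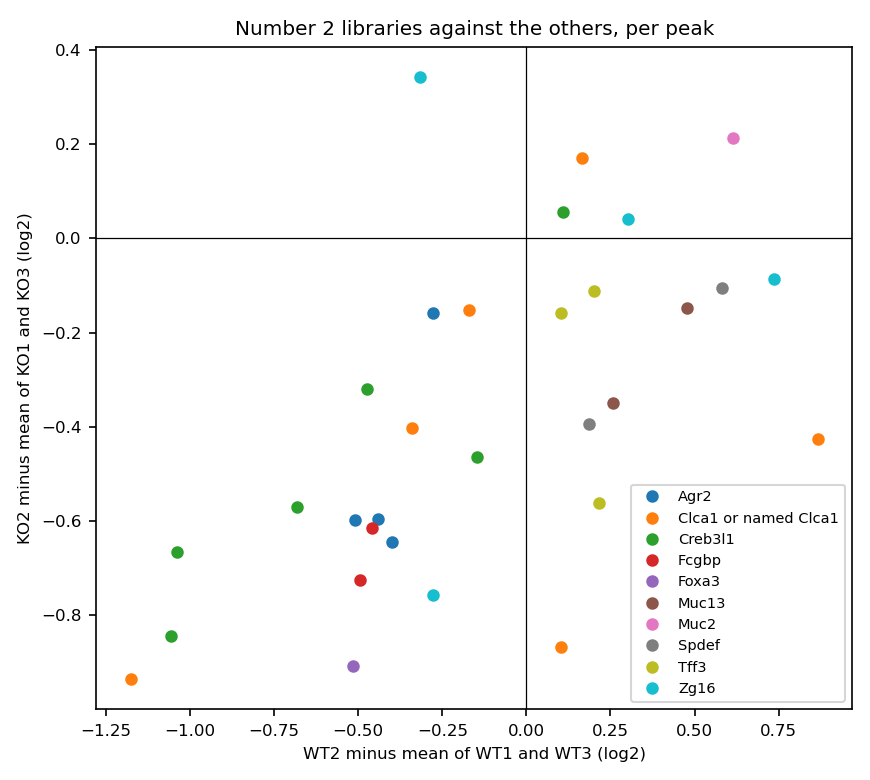
Deviation of the number 2 library from the mean of the other libraries of its group at each goblet gene peak (log2), WT2 on the x axis and KO2 on the y axis, coloured by gene. The lower left, where both are negative, holds the largest group of points, and the Muc2 peak (0.61, 0.21) lies in the upper right.

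The members were set beside 4 lists of other goblet cell genes, matched to the names in the table. Of 10 transcription factors of goblet and secretory cells, 8 had a peak, and all 8 had a higher KO mean, where 55.3% of all gene names did. Their differences ran from 0.02 for Elf3 to 0.27 for Gfi1 with a median of 0.12, 0 were called and 0 had an unadjusted p below 0.05. With quantile normalization 7 of the 8 were higher, without WT2 4 and without KO3 1. Atoh1, which directs cells to the secretory lineages, had 9.38, 8.57 and 9.86 in WT and 9.50, 8.62 and 10.06 in KO. WT2 and KO2 were the low libraries of their groups, and the groups overlapped. Gfi1, a factor that acts after Atoh1, had 7.26, 7.05 and 7.32 in WT and 7.45, 7.15 and 7.83 in KO, with KO2 inside the WT range.

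For mucin glycosylation, 14 of 15 genes had a peak, 10 with a higher and 4 with a lower KO mean, and the differences ran from -0.15 for Galnt3, which starts O-glycan chains, to 0.27 for Gcnt1, which branches them. For protein folding and secretion, 11 of 11 had a peak, 5 higher and 6 lower, between -0.23 for the disulfide isomerase Pdia6 and 0.24 for Sytl4, which takes part in vesicle transport. For other mucins and secreted products, 11 of 23 had a peak, 7 higher and 4 lower. The lowest difference of that list was Retnlb, an antibacterial goblet cell product, with 6.56, 5.83 and 6.83 in WT and 5.71, 4.61 and 6.58 in KO, a log2 difference of -0.78. The highest was the gel-forming mucin Muc5b, with 5.67, 6.58 and 5.93 in WT and 6.71, 6.96 and 6.24 in KO, a difference of 0.58. WT and KO overlapped in both genes, and limma called 0 genes of the 3 lists, with 0 at an unadjusted p below 0.05. Of single peaks in the folding and secretion list, 1 of 25 had an unadjusted p below 0.05, the Tspan13 peak given above. It was 0 of 59 peaks for glycosylation and 0 of 22 for other mucins and products, against 2.28% of all peaks.

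Markers of other cell types that a crypt preparation can hold were matched in the same way, and 0 peaks of these lists were called. Epithelial markers, which check the labelled tissue, had a peak for 5 of 7 names (Epcam and Vil1 had none under their names), with 415 to 563 reads per 1000000 in WT and 505 to 524 in KO. Stem cell markers (5 of 6) held 409 to 476 in WT and 437 to 507 in KO, and Paneth cell markers (3 of 7) 34.8 to 42.4 and 40.8 to 47.5. Enteroendocrine markers (4 of 6) held 76.9 to 80.4 and 76.7 to 81.5, tuft cell markers (5 of 6) 126 to 184 and 121 to 171, and absorptive markers (5 of 8) 231 to 354 and 220 to 347. Markers of stroma and endothelium (6 of 7) held 74.8 to 104 and 72.1 to 96.6. The KO mean was higher for 5 of 5 epithelial, 5 of 5 stem cell and 3 of 3 Paneth cell genes, with median log2 differences of 0.15, 0.13 and 0.11, and for 3 of 4 enteroendocrine, 3 of 5 tuft cell, 3 of 5 absorptive and 2 of 6 stromal and endothelial genes. Of all gene names, 55.3% were higher in KO. These counts of markers were not repeated with 1 library left out. The median difference of all gene names moved from 0.02 to -0.14 without KO3 and to 0.18 without KO2. An unadjusted p below 0.05 was reached by 2 of the 7 Paneth cell peaks, both at Itln1, and by 2.28% of all peaks. It was also reached by 1 of the 17 peaks of stroma and endothelium, at Col1a2. Both genes are named after their values were seen. A name without a peak can have 1 under another name, as Muc2 did. Besides those given, such names were Ascl2 (stem), Mmp7, Pla2g2a, Defa24 and Defa17 (Paneth), Neurod1 and Neurog3 (enteroendocrine), Gfi1b (tuft), Apoa1, Apoa4 and Alpi (absorptive) and Des (stroma). WT and KO overlapped in each of these 7 lists, and their part in the members' values was not tested.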

How the data were processed

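Per the labels and the study's methods, reads of 6 ATAC-seq libraries were trimmed with Trim Galore 0.4.1, mapped to GRCm38 with Bowtie2 2.2.5 and imported into SeqMonk, where MACS peaks were called for the whole series. The libraries that went into peak calling are not given in the sources used here. The authors deposited log2 read counts per peak, scaled to the largest library, and named peaks after the closest gene up to 5 kb away. A shorter deposited table of 74 peaks adds the adjusted p-values of the authors' own edgeR test, which were not used, and 0 of its peaks lay within 20 kb of a member. That table is shorter than the set of changed sites the study describes, so the count covers only the peaks it holds.

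On the linear scale, 100% of the deposited log2 values above 0 reads are whole multiples of the value of 1 read (tolerance 0.01 of a read, widening with the count). Peaks without a read, 1 in KO1 and 32 in KO3, are written as 0.9 of a read, and the recovered whole reads gave the depths. Counting error alone bounds what 1 library shows. Per the study's methods, duplicate reads were removed at import, and whether PCR copies remained was not checked. Groups came from the sample titles. The authors tested with edgeR, which needs counts. Here limma 3.58.1 (R 4.3.3; lmFit and eBayes with trend, two-sided, Benjamini-Hochberg adjustment) was fitted to the log2 values of all 123510 peaks and to sums per name over 18004 names, with no covariate, filter or pseudocount. The peak fit was tested on simulated data with changes larger than any member difference and without a shared effect of library number. It therefore does not show how often differences as small as those of the members would be called. Annotation was GENCODE vM21 and RefSeq GRCm38.p6, and motif letters were searched with Python 3.11.15 and pysam 0.24.0.

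All members are named, each with the peak nearest its start and the peak with the highest WT level per kb, besides peaks at an unadjusted p below 0.05 or without overlap between groups. Other genes come from fixed lists, and the genes with the lowest and highest difference are given for the goblet cell lists. Cell type markers are given per list, and 1 list of cell type markers is not reported here. The members and lists were chosen with earlier results of these data known. The titles number libraries 1 to 3 in both groups. Deviations of same-numbered libraries from the group means correlated at 0.04, 0.42 and 0.41 across peaks, and those of differently numbered libraries at -0.46 to 0.04. Libraries numbered 2 and 3 thus shared variation across the groups, and those numbered 1 hardly did. The titles do not say what the number means, and it was used as a block in an alternative only. Variation shared by number stays in the error of the main fit.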

Additional observations from a re-analysis of the deposited data

How the results depend on the processing

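The count of called member peaks and of called member genes was 0 in all alternatives run, including the peaks within 5 kb. Over all peaks, limma called 0 (2821 at an unadjusted p below 0.05), but 2 with library medians centred, 3 with quantile normalization, 3 with voom on the recovered reads, 3 with equal totals over peaks, 143 without replicate 2 (chosen after seeing the data) and 0 to 30 when 1 library was left out (30 without KO2, 1 without WT3). Over all gene names the count was 0, but 11 without replicate 2 and 0 to 2 with 1 library left out (2 without KO2, 1 without WT3). A pseudocount of 5, a minimum mean of 20, which removed no peak, and a threshold of 0.1 gave 0. The median difference of all peaks was -0.14 without WT2 and -0.11 without KO3.

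With the replicate block, limma called 272 peaks (199 higher, 73 lower in KO) and 37 gene names, with a prior of 6879 degrees of freedom against 10.6 without it. It called 0 peaks of the 21 and 29, but 1 of the 58 within 20 kb, the Gm15458 peak upstream of Spdef (0.86, adjusted p = 0.0034, and 0.405 to 1 in the other fits), and 1 peak of the other goblet lists, at Spink4 (starting at 40932001, 0.54, adjusted p = 0.046, and 0.879 to 1 in the other fits). The shared number is not stated to mark a litter, batch or day.

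Of 302 alternative values for 21 single genes and peaks, 267 kept their sign and 35 reversed, 30 of them with 1 library left out. None passed the threshold. The Creb3l1 start peak became -0.033 with voom and -0.08 without replicate 2. Without replicate 2, Muc13 and its inner peak became 0.17 and the downstream Agr2 peak 0.0033. With 1 library left out, the gene differences ranged from -0.17 to 0.23 for Agr2, -0.12 to 0.41 for the name Clca1, -0.13 to 0.27 for Creb3l1, -0.19 to 0.40 for Foxa3 and its peak, and -0.23 to 0.08 for Muc13 and its peak. Peaks ranged from -0.30 to 0.14 for downstream Agr2, -0.25 to 0.45 for the Clca3a1 start, -0.39 to 0.25 for the Creb3l1 intron, -0.30 to 0.30 for the Creb3l1 start, -0.075 to 0.22 (the latter without replicate 2) for Spdef at 27716551, -0.043 to 0.35 for the Tff3 start and -0.0044 to 0.28 for Tff3 at 31133551. Fcgbp (0.13 to 0.52), Spdef (0.13 to 0.38) and Tff3 (0.03 to 0.28) kept their sign, as did the start peaks of Fcgbp (0.15 to 0.50), Muc2 and Agr2 (given above) and the Spdef peak at 27719251 (0.37 to 0.71). The count of member peaks with a higher KO mean was 15 or 16 under the other scalings (quantile, medians, totals, voom) and 18 without replicate 2. The share of reads at the members differed by 12.6 to 29.8 per 1000000. The cause of these moves was not tested. The number of peaks near the members was 58 within 20 kb in place of 21 by name. Over whole peaks, the motif letters were found in 6 (forkhead), 12 (E-box), 10 (CDX), 5 (HNF4), 15 (ETS), 11 (KLF) and 3 (CREB3) of the 21 peaks, against 11.5%, 37.2%, 31.4%, 15.0%, 33.1%, 27.9% and 0.96% of all peaks. Member peaks were wider, with a median of 1050 bp against 750 bp. A longer sequence has more places for a match, so these counts and shares are not at equal length.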
